A study of Saccharomyces cerevisiae with 3 samples.

Results

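The genes described here are the intronless nuclear tRNA genes of budding yeast for serine, threonine and cysteine, on an intergenic array hybridized with chromatin DNA before and after removal of myc-tagged Maf1. Array features were chosen by name alone: those named for a threonine or cysteine tRNA with any anticodon, and those named for a serine tRNA with the anticodon AGA or UGA. The serine tRNA genes with the anticodons CGA and GCU, which carry introns, were left out. The absence of introns in the genes kept is textbook knowledge and was not checked here. The rule found 31 of 6399 features, for 30 genes, among 250 features named for tRNA genes. One of them, tT(AGU)N1, had no value in any condition, so that 30 features of 29 genes were measured. In the names, tT stands for a threonine tRNA, tS for serine and tC for cysteine, the bracket holds the anticodon, and the last letter is that of the chromosome, followed by a copy number where there are several.

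A tRNA gene carries its promoter inside the transcribed stretch, as an A box and a B box. TFIIIC binds both boxes and places TFIIIB upstream of the start, and TFIIIB recruits RNA polymerase III (Pol III). Maf1 is the conserved repressor of Pol III. Rapamycin inhibits the TOR kinase and thereby lets Maf1 lose its phosphates, enter the nucleus and bind Pol III. The families differ in what their tRNAs read. In tS(AGA) and tT(AGU) the first anticodon base is turned into inosine, tS(UGA) reads the serine codon UCA, tT(UGU) and tT(CGU) read the threonine codons ACA and ACG, and tC(GCA) reads both cysteine codons. Serine tRNAs have a long variable arm, which those of threonine and cysteine lack.

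All cells carried myc-tagged Maf1 and grew in YPD, a rich medium, to an optical density of 0.6. The comparison was between 3 conditions: no treatment, and rapamycin at 0.2 ng/ul for either 30 or 120 min. Each condition has 1 deposited column, the authors' mean of 3 replicates, so that no spread between replicates and no test is available and every difference below is a description of these columns. In each hybridization the immunodepleted chromatin DNA was labelled with Cy5 and the input with Cy3. Values are the deposited score minus the median of its column, in score units. The labels state no log base and do not say whether Cy5 was divided by Cy3 or the reverse. If Cy5 was divided by Cy3, a high score is DNA that stayed behind after depletion, and if the reverse, DNA that left with Maf1. No amount of Maf1 is therefore read from a score, and with the sign turned every higher value below reads as lower. The columns had 6284, 6282 and 6279 measured features and robust SDs (from the median absolute deviation) of 0.39, 0.44 and 0.51. The stretch that each feature covers was not given, and genes with the same anticodon are nearly identical, so hybridization may not tell them apart. The number of arrays limits the precision.

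Members stood high in all 3 conditions. Their median level was 0.86 without rapamycin, 0.64 at 30 min and 1.45 at 120 min, where the median over all features is 0 by construction. The order of the conditions depended on scaling, since the medians were 0.86, 0.56 and 1.10 with each column brought to the spread of the untreated one (equal spread) and 1.07, 0.86 and 0.98 under quantile normalization, where the untreated median was the highest. Above the column median lay 28 of 30 members in untreated cells and 29 of 30 at each time in rapamycin. Levels ran from -0.04 to 1.61 before treatment, from -0.24 to 1.31 at 30 min and from -0.21 to 2.50 at 120 min. A stricter limit of 3 robust SDs above the column median lay at 1.16, 1.33 and 1.54. In untreated cells 5 members exceeded it, against 1.27% of all features. After 30 min 0 members did, against 0.111% of all features, or 7 of 6282. After 120 min 14 members did, against 4.24% of all features. Under quantile normalization the counts were 5, 7 and 5, and with the untreated robust SD for all columns 5, 1 and 23. The shares of all features were not computed under these settings, so the counts show only how the number of members moved. The other 215 measured tRNA-named features had medians of 0.76, 0.62 and 1.47 and 29, 1 and 102 features past the limit. The shares past it were thus 16.7% of members and 13.5% of other tRNA-named features in untreated cells, and 46.7% and 47.4% after 120 min.

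**Figure D1:**
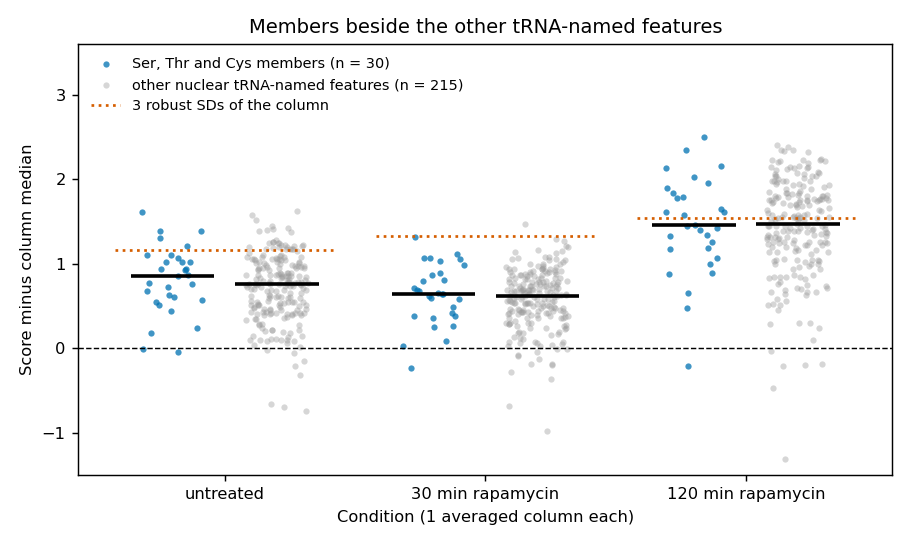
Score minus column median (y, score units) for the 30 measured members (blue points) and the 215 other tRNA-named features (grey points) in the 3 conditions (x). Bars are medians and dotted lines the limit of 3 robust SDs. Member medians are 0.86, 0.64 and 1.45 and other medians 0.76, 0.62 and 1.47. The larger set of other features reaches lower, to -0.75, -0.98 and -1.31, against -0.04, -0.24 and -0.21 for members. The highest values are 1.62, 1.47 and 2.41 for the other features and 1.61, 1.31 and 2.50 for members.

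The limit divides a continuous range. In untreated cells tS(AGA)G was just above it at 1.20, while tT(UGU)G1 with 1.11 and tC(GCA)B with 1.10 were just below. After 30 min the highest member, tT(AGU)J, stood at 1.31 against a limit of 1.33. After 120 min tT(UGU)G2 was just above at 1.57, and tC(GCA)P1 with 1.46 and tS(AGA)M with 1.45 just below. Past the limit both in untreated cells and after 120 min were 4 members, against 12.1% of the other tRNA-named features and 63 of all 6277 features. Past it in untreated cells but not after 120 min was 1 member, against 1.40% and 0.271%. Another 10 were past it only after 120 min among the 3 columns, against 35.3% and 3.23%. The other 15 members exceeded it in none of the columns.

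Between untreated cells and 120 min, 26 of 30 members had higher scores, by a median of 0.83 over all 30. Of all features 56.1% were higher for this change, and their median was 0.07. The 215 other tRNA-named features had a median of 0.70, with 208 higher. The changes of members ranged from -1.06 to 1.47. The limit of 3 robust SDs of this change lay at 1.39, and 1 member passed it upward, tT(CGU)K, against 0.892% of all features. Of the 4 members that were lower, 3 belong to tS(UGA) and the other is tS(AGA)B. The 120 min column has the widest spread of the 3, and the split moved with scaling. With equal spread 22 of 30 were higher, by a median of 0.46, and after quantile normalization 18 of 30, by a median of 0.18. All features then gave 56.7% and 52.8% higher, and of the 215 other tRNA-named features 195 and 137 were higher. Under centring, equal spread and quantile normalization alike, 18 members were higher, 4 lower, and 8 had no common direction.

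**Figure D2:**
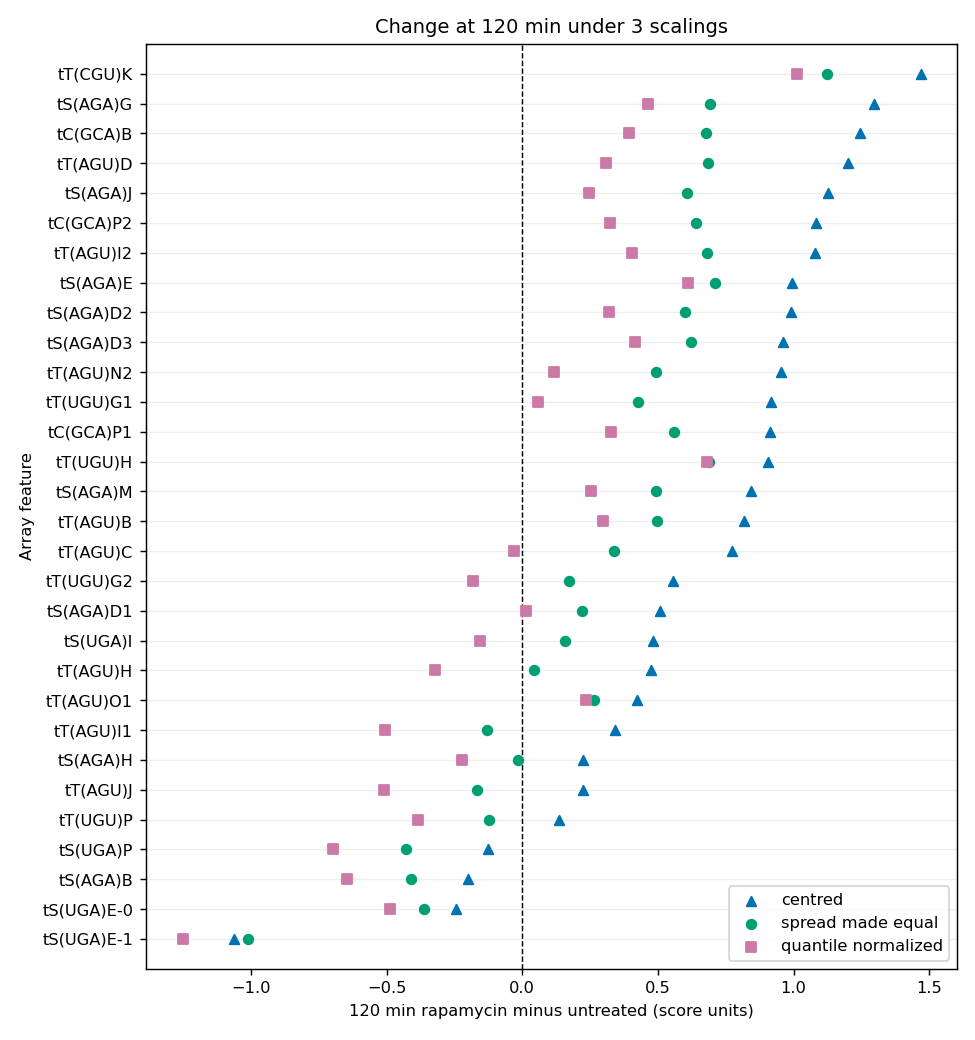
Change from untreated cells to 120 min of rapamycin (x, score units) for each measured member (y), under centring (triangles), equal spread (circles) and quantile normalization (squares). The same 4 features lie below 0 under all 3 scalings, and 18 lie above 0 under all 3; medians over the 30 members are 0.83, 0.46 and 0.18.

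At 30 min the members had no common direction. Their median change from untreated cells was -0.08, with 20 of 30 below 0, where 50.5% of all features were below 0. Upward past 3 robust SDs of this change lay 0 members, against 1.67% of all features. Without centring the split was 16 below and 14 above, with equal spread 23 and 7, and after quantile normalization 15 and 15. Of all features 57.0%, 48.9% and 50.1% were above 0 in these settings. The step from 30 to 120 min was more uniform in the centred data. Here 28 of 30 members were higher, by a median of 0.94, where 56.9% of all features were higher, and 3 passed the upper limit of 3 robust SDs, against 1.45% of all features. These are tS(AGA)G with 1.71, tT(UGU)G1 with 1.61 and tT(AGU)D with 1.41. After quantile normalization 18 of 30 were higher in this step, against 52.8% of all features. The median of the members was then 0.17, and 0 of them passed the limit. The most frequent course was lower at 30 min and then higher, in 18 members, or 60.0%, against 65.6% of the other tRNA-named features and 35.0% of all features. It rests on the 30 min direction, which moved with scaling as given above. Higher in both steps were 10 members, against 31.2% of the other tRNA-named features and 21.9% of all features. Lower in both were 2, against 0.930% and 15.5%, and 0 were higher and then lower, against 2.33% and 27.6%.

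**Figure D3:**
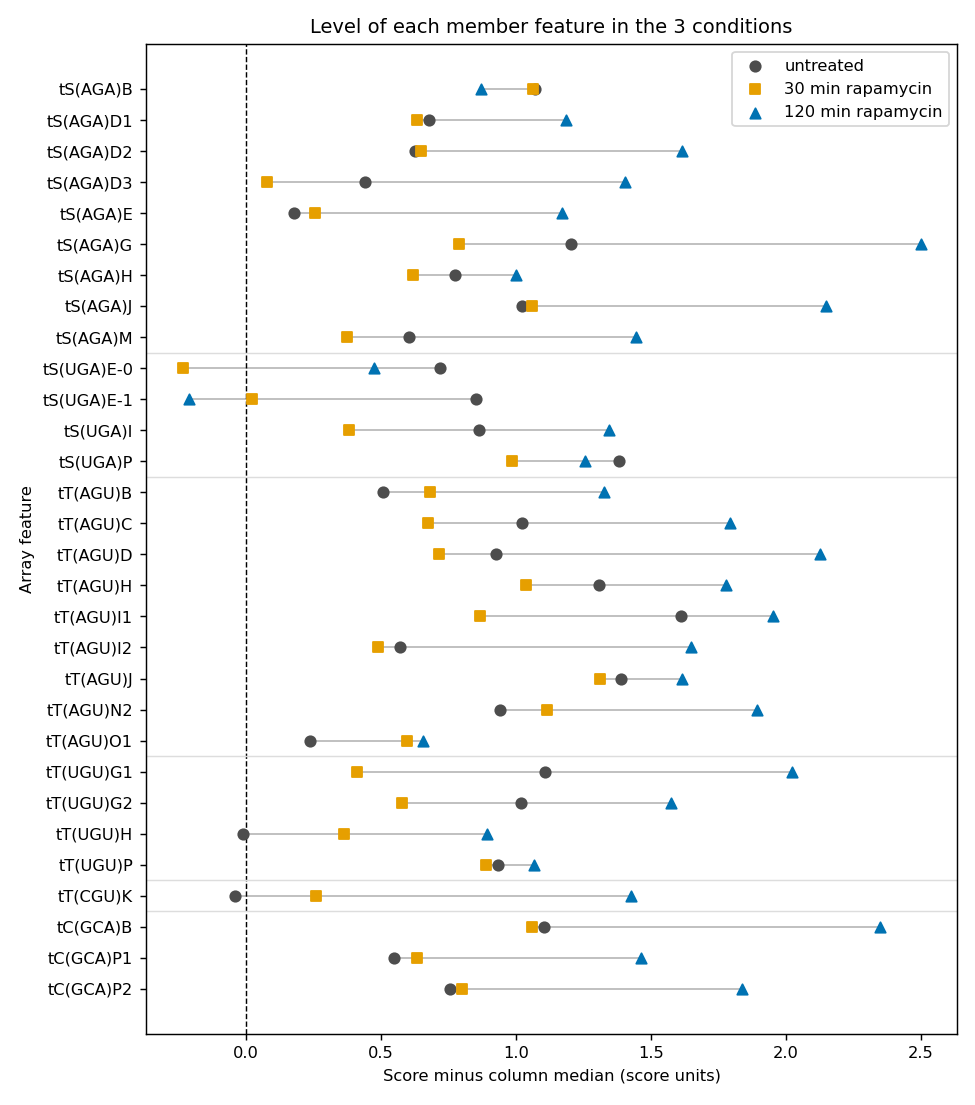
Score minus column median (x, score units) of each measured member (y) in untreated cells (circles), after 30 min (squares) and after 120 min (triangles) of rapamycin, grouped by anticodon; each point is 1 averaged column. In 26 of 30 members the centred 120 min value is the highest of the 3. That held for 95.3% of the other tRNA-named features and 43.5% of all features. In the other 4 members, tS(AGA)B and 3 features of tS(UGA), the untreated value is the highest, against 2.33% and 28.9%.

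The serine genes with the anticodon AGA, whose tRNA reads the codons UCU and UCC, have 9 features here. Their medians were 0.68 before rapamycin, then 0.63 at 30 min and 1.40 at 120 min. Where 3 levels are given in a row from here on, they stand in that order of conditions. The feature of tS(AGA)G stood at 1.20, 0.79 and 2.50, and its last value was the highest of all 245 measured tRNA-named features and above 99.95% of all features. That of tS(AGA)J stood at 1.02, 1.06 and 2.15. Both were among the 14 members past the limit after 120 min, and so was tS(AGA)D2 with 0.62, 0.65 and 1.62.

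The other serine AGA features stayed below that limit. On chromosome IV, tS(AGA)D1 stood at 0.68, 0.63 and 1.18, and tS(AGA)D3 at 0.44, 0.08 and 1.40. With tS(AGA)D2 included, the 3 copies on chromosome IV ended between 1.18 and 1.62. The feature of tS(AGA)M had 0.60, 0.38 and 1.45. The lowest untreated value of the family was that of tS(AGA)E, which went through 0.18, 0.25 and 1.17. With 0.77, 0.62 and 0.999, tS(AGA)H was higher by 0.23 at 120 min than before treatment, but lower by 0.02 with equal spread and by 0.22 after quantile normalization.

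A different course was seen at tS(AGA)B. It stood at 1.07 before treatment, 1.06 at 30 min and 0.87 at 120 min. Among the 245 tRNA-named features it ranked 46, 15 and 204 from the top. The other 8 features of this family were all higher at 120 min in the centred data, by 0.23 to 1.30, and 7 of 8 were with equal spread or under quantile normalization, whereas tS(AGA)B changed by -0.20. It was lower under equal spread, with -0.41, and after quantile normalization, with -0.65.

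The serine genes with the anticodon UGA have 3 genes and 4 features, because tS(UGA)E is covered by a pair of numbered tiles. In untreated cells all 4 features were high, between 0.72 and 1.38. All 4 were lower after 30 min under every scaling tried, by 0.40 to 0.96 in the centred data. There 16 of the 26 other members were lower too, and 50.5% of all features. Of these 26, 12 were lower without centring, 19 with equal spread and 11 after quantile normalization. After 120 min 43.9% of all features were below their untreated value in the centred data. So were 3 of the 4, against 1 of the 26 other members. These counts were 3 and 5 under equal spread, and 4 and 8 under quantile normalization. The difference between these groups was not tested, and 2 of the 4 features share a gene. Without tS(UGA)E, 2 features remain, both lower at 30 min and 1 of them lower at 120 min.

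The first tile, tS(UGA)E-0, stood at 0.72 without rapamycin, at -0.24 after 30 min of it and at 0.47 after 120 min. It was thus above 94.0% of all features at first, above 31.0% after 30 min and above 81.0% after 120 min. Its change at 30 min, -0.96, was the second lowest of the 245 tRNA-named features, at rank 244.

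The second tile, tS(UGA)E-1, stood at 0.85, 0.021 and -0.21. It was above 96.2%, 52.2% and 34.0% of all features, so that it ended below the column median, the only member to do so after 120 min. Its change of -1.06 at 120 min was the lowest of the 245, and it remained the lowest of the members with equal spread, at -1.01, and after quantile normalization, at -1.25. It did not pass the lower limit of 3 robust SDs, which lay at -1.25 for this change. The tiles differed by 0.13 in untreated cells and 0.26 after 30 min, with tile 1 higher, and by 0.69 after 120 min, with tile 0 higher.

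Of the other tRNA genes with numbered tiles, 5 had both tiles measured, and tile 0 was higher than tile 1 in all 5 in each condition. There the tiles differed by 0.51 to 1.51 in untreated cells and by 1.42 to 2.53 after 120 min, and after 120 min tile 0 lay between 1.22 and 1.81. The tiles of tS(UGA)E were thus closer to each other than those of the other 5 genes in all 3 conditions, and its tile 0 was lower after 120 min than the other 5. In the change from untreated cells to 120 min, tile 0 exceeded tile 1 in all 5, by 0.61 to 1.49, and at tS(UGA)E by 0.82. Tile 1 was also lower at 120 min at tP(UGG)L with -0.27, tV(AAC)K1 with -0.54 and tW(CCA)K with -0.61. It was higher at tE(CUC)D with 0.08 and tV(AAC)G3 with 0.47. Which tile holds the gene, and how far each one lies from it, was not given.

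**Figure D4:**
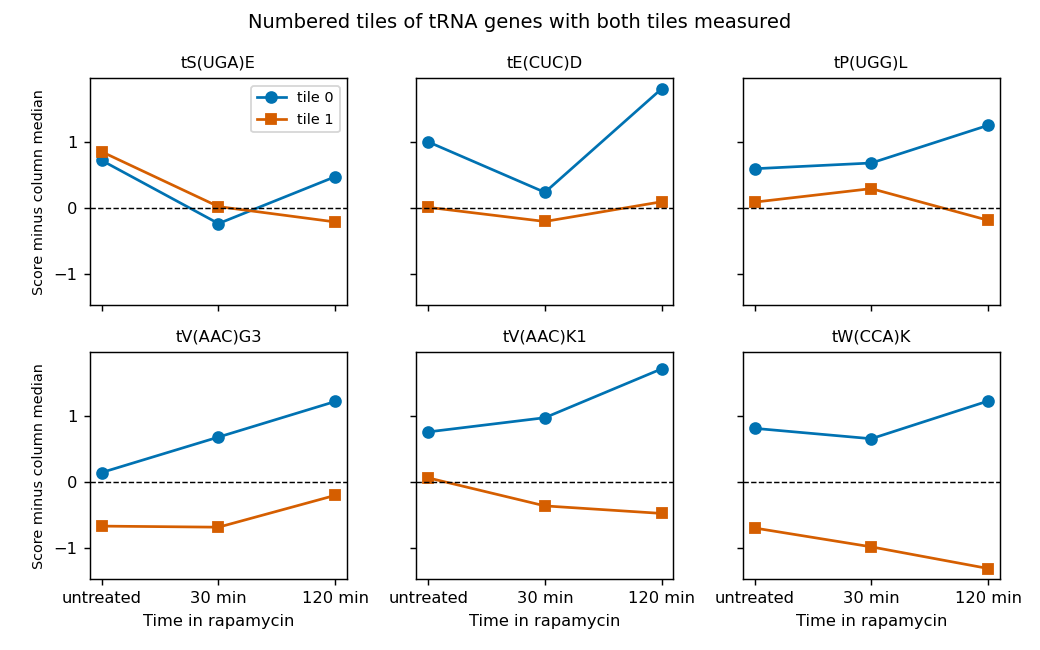
Score minus column median (y) of tile 0 (blue) and tile 1 (orange) in the 3 conditions (x) for tS(UGA)E and the 5 other tRNA genes with both tiles measured; each point is 1 averaged column. In the other genes tile 0 lies above tile 1 throughout, while the tS(UGA)E lines cross and both tiles start above 0.7.

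The remaining genes of this anticodon each have 1 feature. That of tS(UGA)P stood at 1.38, 0.99 and 1.26, the highest member of its family in untreated cells and after 30 min. Its level was above 99.6%, 99.0% and 94.0% of all features, and its change of -0.13 at 120 min became -0.43 under equal spread and -0.70 under quantile normalization. The feature of tS(UGA)I stood at 0.86, 0.38 and 1.34. It was higher by 0.48 after 120 min, by 0.16 with equal spread and lower by 0.15 after quantile normalization.

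The threonine genes with the anticodon AGU, whose tRNA reads the codons ACU and ACC through inosine, have 9 measured features. Their medians were 0.94, 0.72 and 1.78 in the order of the conditions. All 9 were higher at 120 min in the centred data, by 0.22 to 1.20, but 7 of 9 under equal spread and 5 of 9 under quantile normalization were. In the centred 120 min column 7 of 9 passed the limit of 3 robust SDs of the column. Past it were 47.4% of the other tRNA-named features and 4.24% of all features. The 2 of this family that did not pass were tT(AGU)B with 0.51, 0.68 and 1.33, and tT(AGU)O1 with 0.23, 0.60 and 0.66. Under quantile normalization 5 members of all families together passed, so the count of 7 did not hold there.

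The 3 members that started highest in this family were among the 4 with the smallest changes at 120 min. The untreated level is subtracted in this change, so such an order is partly built in. It is not read as a trait of these genes. The feature of tT(AGU)I1 stood at 1.61, 0.87 and 1.95, and ranked 2 of the 245 tRNA-named features at first and 51 and 45 in rapamycin. With 1.39, 1.31 and 1.62, tT(AGU)J ranked 9, 2 and 101. The feature of tT(AGU)H stood at 1.31, 1.04 and 1.78. Under quantile normalization these 3 features were lower after 120 min, by 0.51 at tT(AGU)I1, by 0.51 at tT(AGU)J and by 0.32 at tT(AGU)H, and with equal spread the first and second of them were lower too, by 0.13 and 0.17.

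Others of the family began lower and ended at a like level. The feature of tT(AGU)D stood at 0.93, 0.72 and 2.13, the largest change of the family at 1.20. That of tT(AGU)I2, on the same chromosome as tT(AGU)I1, stood at 0.57, 0.49 and 1.65. With 0.94, 1.11 and 1.89, tT(AGU)N2 was higher at each time than before. The feature of tT(AGU)C stood at 1.02, 0.68 and 1.79, and its change of 0.77 at 120 min became -0.03 after quantile normalization.

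The threonine genes with the anticodon UGU have 4 features, with medians of 0.98, 0.50 and 1.32. On chromosome VII, tT(UGU)G1 stood at 1.11, 0.41 and 2.02, and tT(UGU)G2 at 1.02, 0.58 and 1.57. Both were lower at 30 min, by 0.70 and 0.44, and higher after 120 min, by 0.92 and 0.55, although tT(UGU)G2 was lower by 0.18 after quantile normalization. The feature of tT(UGU)P stood at 0.93, 0.89 and 1.07, with changes of -0.05 at 30 min and 0.13 at 120 min. Both turned with scaling, to 0.13 at 30 min under quantile normalization, and at 120 min to -0.12 under equal spread and -0.38 under quantile normalization. That of tT(UGU)H began at the column median, with -0.01, and stood at 0.36 and 0.89 in rapamycin.

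The gene tT(CGU)K, the single threonine gene with the anticodon CGU here, had the largest change of all members. Its feature stood at -0.04 before treatment, at 0.26 after the first interval and at 1.43 after the longer one. It was above 45.5% of all features at first and above 95.1% at the end. The change of 1.47 ranked 5 of 245 tRNA-named features, with 1.12 under equal spread and 1.01 under quantile normalization. Together with tT(UGU)H it is 1 of 2 members that began below the column median, and both were higher at each step. The untreated level is subtracted in a change from untreated cells, so a low start favours a larger one.

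The cysteine genes, all with the anticodon GCA, have 3 features, with medians of 0.76, 0.80 and 1.84. The feature of tC(GCA)B stood at 1.10, 1.06 and 2.35 and ranked 5 of 245 tRNA-named features after 120 min. That of tC(GCA)P2 stood at 0.76, 0.80 and 1.84, and tC(GCA)P1 on the same chromosome at 0.55, 0.64 and 1.46. All 3 were nearly level between untreated cells and 30 min, with changes of -0.04 to 0.09, and higher by 0.91 to 1.24 after 120 min. At 120 min they were higher under equal spread and quantile normalization too. Of the 17 threonine and cysteine features 17 were higher at 120 min in the centred data, 14 under equal spread and 11 under quantile normalization. Of the 13 serine features 9, 8 and 7 were, and of all features 56.1%, 56.7% and 52.8%. The serine features that were lower in the centred data were tS(AGA)B and 3 of tS(UGA). Outside the members, the serine features tS(GCU)F, tS(GCU)L and tS(GCU)O were higher by 0.96, 0.44 and 1.40 in the centred data. The difference between the amino acids was not tested.

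**Figure D5:**
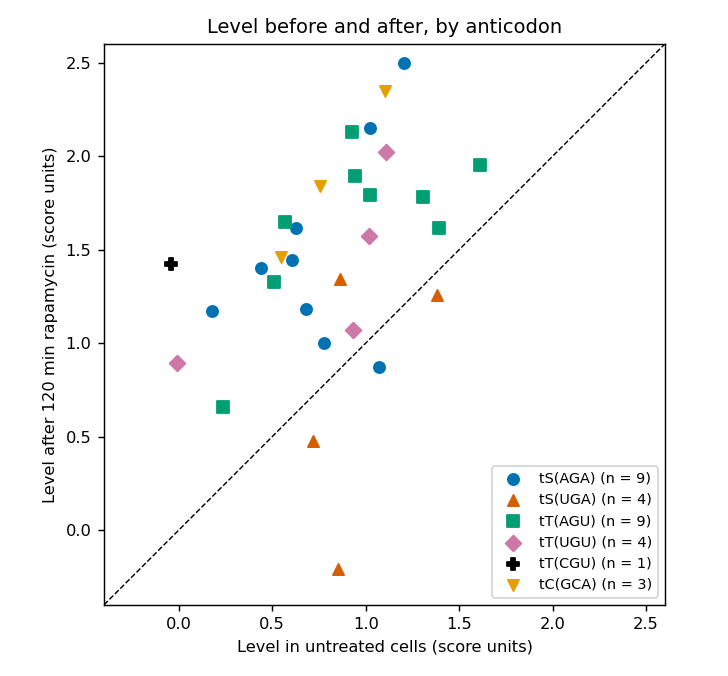
Level in untreated cells (x) against level after 120 min of rapamycin (y), both in score units, for the 30 measured members by anticodon; the dashed line marks equal levels. All 17 threonine and cysteine features lie above the line in the centred data, and tS(AGA)B and 3 of 4 tS(UGA) features below it. Of all features 56.1% were higher at 120 min.

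The levels of members before treatment and after 120 min were related loosely. Across the 30 members Pearson's r was 0.40 and Spearman's rho 0.48 between untreated cells and 120 min, and r was 0.52 over the 28 features without tS(UGA)E. Across the 215 other tRNA-named features r was 0.75 and across all 6277 features measured throughout 0.59. Between untreated cells and 30 min r was 0.60 over the members, and between 30 and 120 min 0.53, or 0.31 without tS(UGA)E. These are correlations across features, which are not independent replicates and share the array platform and the normalization list.

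The intronless tRNA genes for methionine, isoleucine, leucine and proline (tM, tI(AAU), tL(UAA), tL(GAG) and tP(AGG)) were taken as a comparison set, since they too lack introns. Their 30 features had medians of 0.73, 0.61 and 1.41, and 30 of 30 were higher at 120 min in the centred data, with a median change of 0.74, against 28 under equal spread and 22 under quantile normalization. The members described here had 26, 22 and 18 of 30, with a median of 0.83 in the centred data. At the upper end, 0 of those 30 features passed the untreated limit of 1.16, against 5 of 30 members. Past it were 29 of the 215 other tRNA-named features, which include this comparison set, and 1.27% of all features. None of these differences was tested.

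Genes whose products act on these tRNAs, such as synthetases and modification enzymes, were taken from a list of 18 genes, of which 14 had a feature named for them. A feature with an open reading frame's name lies beside it, on a side that was not given. Their medians were 0.11, 0.16 and 0.04 in the 3 conditions, and 0 of 14 passed the upper limit in any of them. Past the lower limit was 1, KRE33, at 120 min, with a level of -2.11 against -1.54, where 105 of 6279 features lay past it. At 120 min 5 of 14 were higher than before treatment and 9 lower, with a median of -0.14, where 56.1% of all features were higher and their median was 0.07. Downward past 3 robust SDs of a change from untreated cells lay KRE33 at 120 min and DIA4, for the mitochondrial seryl-tRNA synthetase, at 30 min with -1.06. Of all features 140 of 6278 lay past the lower limit at 120 min and 104 of 6280 at 30 min. All values of this list are centred, and the other scalings were not applied to it. DIA4 is named here after its values were seen. The highest changes were 0.75 at TAD2, whose product makes inosine at the first anticodon base, and 0.48 at KAE1, of the complex that modifies the base next to the anticodon in threonine tRNAs. The lowest were -2.17 at KRE33, an RNA acetyltransferase gene, and -1.24 at THS1, for the cytosolic threonyl-tRNA synthetase, which stood at 0.92, 0.55 and -0.32.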

How the data were processed

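DNA of immunodepleted (Cy5) and input (Cy3) chromatin was hybridized to intergenic arrays. The deposited values are, per the labels, the authors' means over 3 replicates, normalized to a list of genes. Which genes these were, how background was corrected and on which build the array rests is not given in these sources. The unit was taken as a score per the labels, which name no log base or direction. Columns without a sample numbered 0. Spot intensities were not used here.

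From every column the median of its measured features was subtracted, and changes are differences of these values per feature (Python 3.11.15, pandas 2.3.3). Limits are 3 robust SDs of a column or of a change. With 1 column per condition no test was made. Every member is named, and of the list of 18 genes the 2 highest and 2 lowest changes at 120 min. Symbols came from a RefSeq table of assembly R64, whose nuclear tRNA names differ from those of the array, so that tRNA positions and neighbours were not used here. Members and lists were chosen with earlier results of these data known. The computation of changes was tested on simulated data.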

Additional observations from a re-analysis of the deposited data

How the results depend on the processing

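Of 66 alternative values 47 kept their direction and stayed within 1.5 times the reported one, and 19 did not, with 0 reversed medians. Some of the 47 could not move, since equal spread leaves the untreated column as it is. Counts of 0 that stayed 0 are among the 47 too, so this tally is no measure of robustness. The deposited means carry no replicate, so leaving out arrays was not possible, and the alternative without mitochondrial members was not run because there were 0. Averaging the tiles of a gene, or leaving out tS(UGA)E, moved none of the medians and counts past 1.5 times. Scaling moved the changes. At 120 min against untreated, equal spread gave a median change of 0.46 and quantile normalization 0.18. It was 0.17 after quantile normalization for 120 min against 30 min, and -0.018 without centring, -0.20 with equal spread and -0.018 after quantile normalization at 30 min against untreated. Quantile normalization by its construction gives the 3 columns 1 distribution. A limit of 2 robust SDs gave 16, 8 and 24 members in the 3 conditions in order of time, and 11 and 15 members for the changes to 120 min from untreated cells and from 30 min. The share of all features past this limit was not computed, so these counts are not read as a result about the members. After 30 min 1 member passed the limit without centring, 1 with the untreated robust SD for all columns, and 7 after quantile normalization. After 120 min 23 passed with the untreated robust SD and 5 after quantile normalization. For the change from untreated cells to 120 min 2 passed without centring and 0 after quantile normalization, and for the step from 30 min 0 did after quantile normalization. For all features the shares past these limits were not computed under the alternative settings. The cause of these moves was not tested.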

Other observations

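Members lie on 13 chromosomes by the letters in their names, and members on the same chromosome changed by different amounts. On chromosome V, tS(AGA)E was higher after 120 min by 0.99 in the centred data, while the tiles of tS(UGA)E changed by -0.25 and -1.06. On chromosome II, tC(GCA)B was higher by 1.24 and tT(AGU)B by 0.82, while tS(AGA)B changed by -0.20. On chromosome XVI, tC(GCA)P1 and tC(GCA)P2 were higher by 0.91 and 1.08, tT(UGU)P by 0.13, and tS(UGA)P changed by -0.13, all in the centred data. With equal spread tT(UGU)P was lower too, at -0.12, and under quantile normalization it changed by -0.38. The distances between these genes were not used here.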
